A study of Mus musculus with 53 samples.

Results

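The 10 genes described here are widely used as markers of astrocytes: Slc1a2, Slc1a3 and Glul of glutamate uptake and recycling, Gja1, Gjb6 and Aqp4 of gap junctions and water transport, Gfap and S100b of the cytoskeleton and calcium binding, and Aldoc and Aldh1l1 of metabolism. They were taken by symbol from a count table of 12372 genes, and all 10 were found in it. Their levels were measured by RNA sequencing of poly-A RNA in brainstem, cerebellum, cortex and striatum of male mice aged 17.5 months, with 1 library per mouse and region. Wild-type mice were C57BL/6. SCA3 mice were hemizygous MJD84.2 mice, in which an added full-length human ATXN3 with a lengthened CAG repeat is expressed in all tissues from the human promoter, beside the mouse Atxn3. This strain models spinocerebellar ataxia type 3. The study reports no motor symptoms up to the age sampled, and the beam-walk tests it describes were run at younger ages. The comparison asks which transcripts differ without a reported motor deficit. None of the mice received a treatment. Each SCA3 mouse weighed less than each wild-type mouse, so body weight cannot be told apart from genotype in any comparison here. Wild-type and SCA3 libraries numbered 8 and 6 in brainstem, 7 and 6 in cerebellum, 7 and 6 in cortex and 8 and 5 in striatum, which made 53 libraries from 14 mice.

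Astrocytes clear glutamate and potassium released by neurons, turn glutamate into glutamine, pass ions and metabolites to each other through gap junctions, and ensheath blood vessels with endfeet rich in water channels. Their transcripts differ between brain regions, and the Bergmann glia of the cerebellum are a well-known specialised form. Injury and disease often raise Gfap, while transcripts of uptake and coupling can move separately from it. Because whole tissue was sequenced, fewer astrocytes and less RNA of a gene per astrocyte cannot be told apart in any result given here. Glul and S100b are also expressed by oligodendrocytes, and Aldoc by some Purkinje cells.

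The stretch upstream of a RefSeq transcription start is shown for 3 members that went different ways in the libraries: Slc1a2, which was lower in SCA3 brainstem, Gja1, which was lower in brainstem and striatum, and S100b, which was not lower in any region. These are the 250 bases before the RefSeq start on GRCm38.p6, read 5′ to 3′ along the gene. They lie at chr2:102706188-102706437, chr10:56377050-56377299 and chr10:76253586-76253835, all on the + strand, and no exon annotated in GENCODE M21 overlaps them. The Slc1a2 window precedes the RefSeq start used here and lies inside the span of the gene in GENCODE M21, which has a start further upstream. Capitals mark matches on either strand to any of 7 short motifs.
Slc1a2: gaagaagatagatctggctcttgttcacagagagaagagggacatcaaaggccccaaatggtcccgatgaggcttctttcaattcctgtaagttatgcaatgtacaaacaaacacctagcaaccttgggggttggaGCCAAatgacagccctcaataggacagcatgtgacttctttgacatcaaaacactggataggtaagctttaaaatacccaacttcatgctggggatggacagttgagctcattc
Gja1: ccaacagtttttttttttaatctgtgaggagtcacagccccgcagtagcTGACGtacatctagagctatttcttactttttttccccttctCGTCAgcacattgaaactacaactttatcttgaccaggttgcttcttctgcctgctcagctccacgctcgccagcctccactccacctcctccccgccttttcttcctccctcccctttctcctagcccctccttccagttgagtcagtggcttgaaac
S100b: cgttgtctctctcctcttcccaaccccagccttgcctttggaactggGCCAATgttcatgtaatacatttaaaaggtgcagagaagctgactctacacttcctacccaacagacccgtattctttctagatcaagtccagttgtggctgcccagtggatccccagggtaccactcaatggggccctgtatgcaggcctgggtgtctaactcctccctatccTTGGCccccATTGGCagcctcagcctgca
The Slc1a2 window held 1 match to the NFI half-site TTGGC and the S100b window 3, and 41.5% of 32851 windows of this length held at least 1. Of the S100b matches, 2 overlap a match to CCAAT, which was present in 33.8% of windows. The Gja1 window held 2 matches to the CRE half-site TGACG, present in 17.8% of windows. No match was found in the 3 windows to the STAT motif TTCNNNGAA (present in 7.0% of all windows), to the SOX motif ACAATG (in 10.7%), to the TATA box TATAAA (in 12.4%) or to the GC box GGGCGG (in 32.7%). RefSeq windows were matched for 9 members. The matches describe letters only.

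Libraries held 31.7 to 76.7 M counts (M for mega), and no member had fewer than 1199 counts in any library, so counting error was small beside the spread between mice. All 30 further astrocyte markers that were listed were also measured. RNA integrity (RIN) differed between genotypes in brainstem, from 6.3 to 7.6 in wild-type and from 7.4 to 8.0 in SCA3 libraries, and overlapped widely in the other regions. Levels are given as CPM (counts brought to the same total in each library, with TMM factors). The gene counted as Atxn3 ranged from 40.4 to 48.2 CPM in wild-type and from 35.9 to 47.8 CPM in SCA3 brainstem. In striatum Atxn3 ranged from 40.1 to 53.7 CPM in wild-type and from 54.3 to 64.8 CPM in SCA3 libraries. The human transgene was not analysed here, and whether its reads were counted under Atxn3 was not tested. A score of thalamus markers (mean log2 CPM of 10 genes) set some libraries apart. In striatum it was 7.35 in wild-type mouse 7267059 and 7.06 in wild-type mouse 7267058, against at most 5.44 in the other wild-type and 5.01 in the SCA3 libraries. In brainstem it was 6.07 and 5.54 in wild-type mice 7267055 and 9083373 and 6.02 and 5.97 in SCA3 mice 9083515 and 9083514, against at most 5.21 in the others. The members' calls in these regions were recomputed without these libraries, and the counts over other gene lists and the wild-type levels were not.

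In wild-type mice the members differed strongly in level. Per kilobase of merged exon (GENCODE M21 lengths), Glul led in brainstem with 670 ± 71.2 CPM per kb (SD, n = 8), in cortex with 537 ± 50.8 (n = 7) and in striatum with 586 ± 98.4 (n = 8). In cerebellum Aldoc led with 556 ± 66.4 CPM per kb (n = 7), followed by Glul with 348 ± 65.0. Aldh1l1 was the lowest member per kb in all 4 regions, with means of 14.5 to 19.1 CPM per kb.

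The level of every member differed by region. All 10 passed the joint test over the 4 wild-type regions, a test that 93.0% of all genes passed, so the count itself says little about astrocyte genes. Gfap, the main intermediate filament of astrocytes (chr11:102887336-102900912), was 5.26-fold higher in brainstem than in cerebellum (FDR = 8.9e-11), and its levels in cerebellum, cortex and striatum were not told apart. Slc1a3, the glutamate transporter GLAST (chr15:8634124-8710764), went the other way. It was highest in cerebellum, at 1035 to 1493 CPM, and lowest in brainstem, at 208 to 359.9 CPM, a 4.48-fold difference (FDR = 9.8e-61), with cortex and striatum between them. Slc1a2, the transporter GLT-1 that carries most glutamate uptake in the forebrain (chr2:102658659-102790784), was highest in striatum and cortex, which did not differ beyond their spread (FDR = 0.83), was lower in brainstem and was lowest in cerebellum, 3.45-fold below striatum (FDR = 3.0e-47).

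The other members were higher in the hindbrain regions or in brainstem. Aqp4, the water channel of the endfeet on chromosome 18, was 3.45-fold higher in brainstem than in cortex (FDR = 2.7e-20), and S100b, a calcium-binding protein (chr10:76253853-76261159), was 3.71-fold higher (FDR = 8.0e-19). Brainstem and cerebellum were not told apart for Aqp4 (FDR = 0.051), S100b (FDR = 0.13), Aldoc (FDR = 0.32), Gjb6 (FDR = 0.45) and Aldh1l1 (FDR = 0.79). Aldoc, the brain form of the glycolytic enzyme aldolase (chr11:78322968-78327781), was 2.11-fold higher in cerebellum than in cortex (FDR = 3.9e-25). Gjb6, connexin 30 (chr14:57123303-57133611), was 1.99-fold and Aldh1l1, an enzyme of folate metabolism (chr6:90486427-90600203), 1.32-fold higher in brainstem than in striatum (FDR = 7.6e-09 and FDR = 1.9e-07). Gja1, connexin 43 (chr10:56377330-56402513), was highest in brainstem, 1.60-fold above cortex (FDR = 3.0e-10). Glul, glutamine synthetase (chr1:153899944-153909723), was highest in brainstem, only 1.14-fold above striatum (FDR = 0.0498), and lowest in cerebellum.

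Across pairs of wild-type regions, 5 of the 10 members differed between brainstem and cerebellum (72.6% of all genes), 10 between brainstem and cortex (65.4%), 10 between brainstem and striatum (64.2%), 9 between cerebellum and cortex (69.7%) and 8 between cerebellum and striatum (69.5%). The count for brainstem and striatum was 9 with RIN as a covariate, with a minimum of 10 counts and in 13 of 14 fits without 1 mouse. None passed between cortex and striatum, where 34.4% of all genes did. The smallest FDR there was 0.16, for Gja1, and 1 member passed with RIN as a covariate and without mouse 9083371. These levels also carry the uncertainty of overlapping genes, since reads were counted without strand. In GENCODE M21, exons of opposite-strand genes cover 166 bases of the Slc1a2, 438 bases of the Aldh1l1 and 67 bases of the Glul exons.

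**Figure D1:**
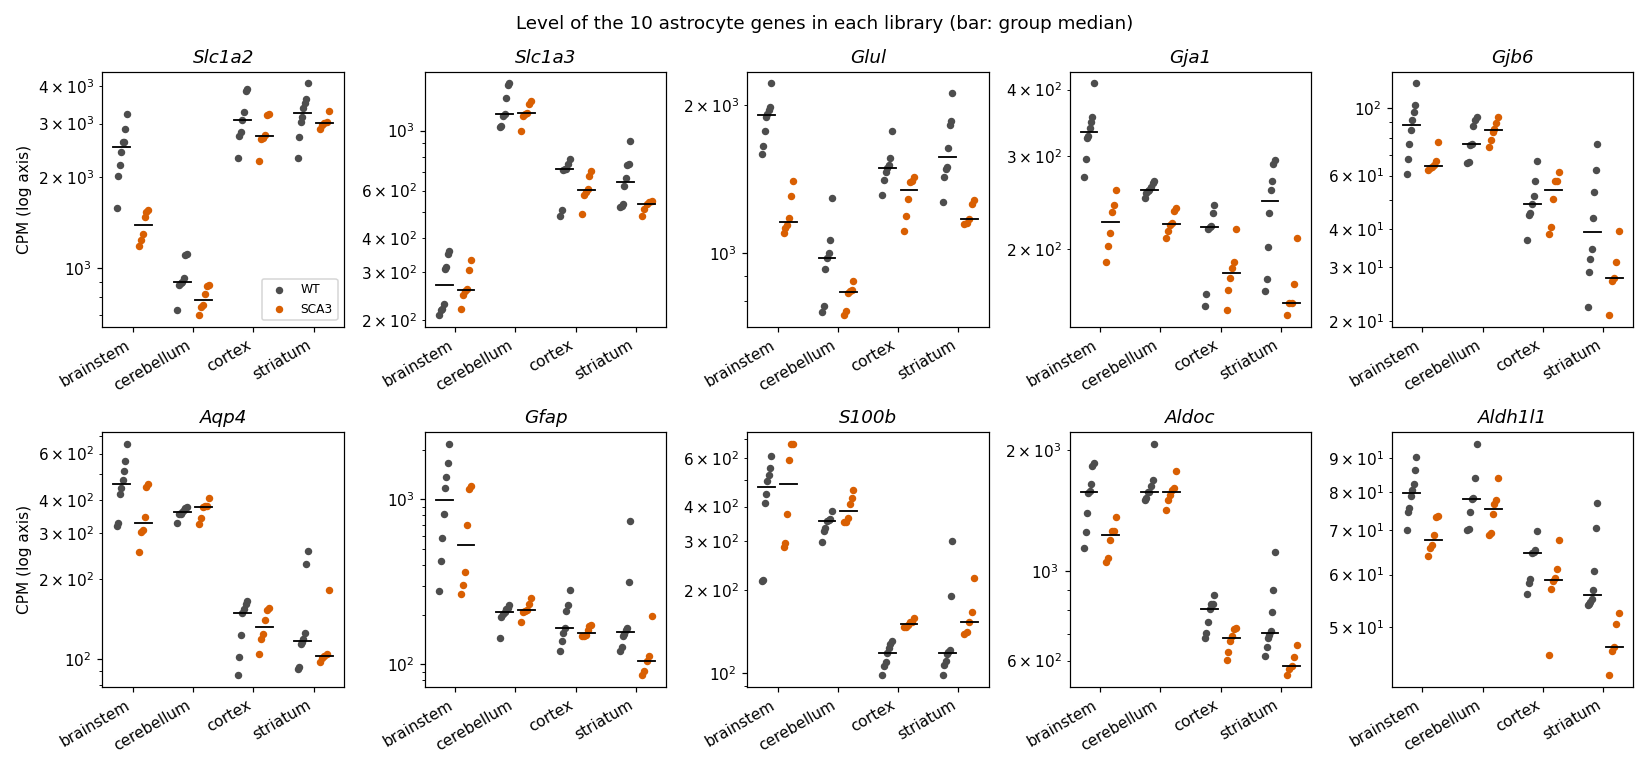
Level of each astrocyte gene in each library in CPM on a log axis, by region, with wild-type in grey, SCA3 in orange and a bar at the group median. In brainstem the orange points of Slc1a2, Gja1 and Glul all lie below the grey points, and in cortex the S100b points of SCA3 (146.8 to 159 CPM) all lie above those of wild-type (98.5 to 130.9 CPM).

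Comparing SCA3 with wild-type mice in each region asked where astrocyte transcripts differed with the transgene. In brainstem 4 of the 10 members were lower in SCA3 (edgeR likelihood ratio test over all 53 libraries, FDR below 0.05), namely Slc1a2, Glul, Gja1 and Aldoc, against 1.15% of all genes called lower. In striatum 5 were lower, namely Glul, Gja1, Aldh1l1, Aldoc and Gjb6, against 5.47% of all genes. None was called in cerebellum or cortex, where 0.0242% and 0.0323% of genes were called lower, and none was called higher in any region. At an unadjusted p below 0.05, Glul passed in both of those regions and Aldoc in cortex, which is 1 of 10 members in cerebellum beside 1.66% of all genes and 2 of 10 in cortex beside 4.07%. The quasi-likelihood test, DESeq2 and limma-voom on all libraries also called none there. The median log2 fold change of the members was -0.40 in brainstem, -0.36 in striatum, -0.15 in cortex and -0.07 in cerebellum, beside 0.0028, -0.0031, -0.0024 and -0.0043 over all genes. The separation of genotypes was complete for 3 members in brainstem (1.38% of all genes) and for 1 each in cerebellum (0.234%), cortex (0.251%) and striatum (0.655%).

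**Figure D2:**
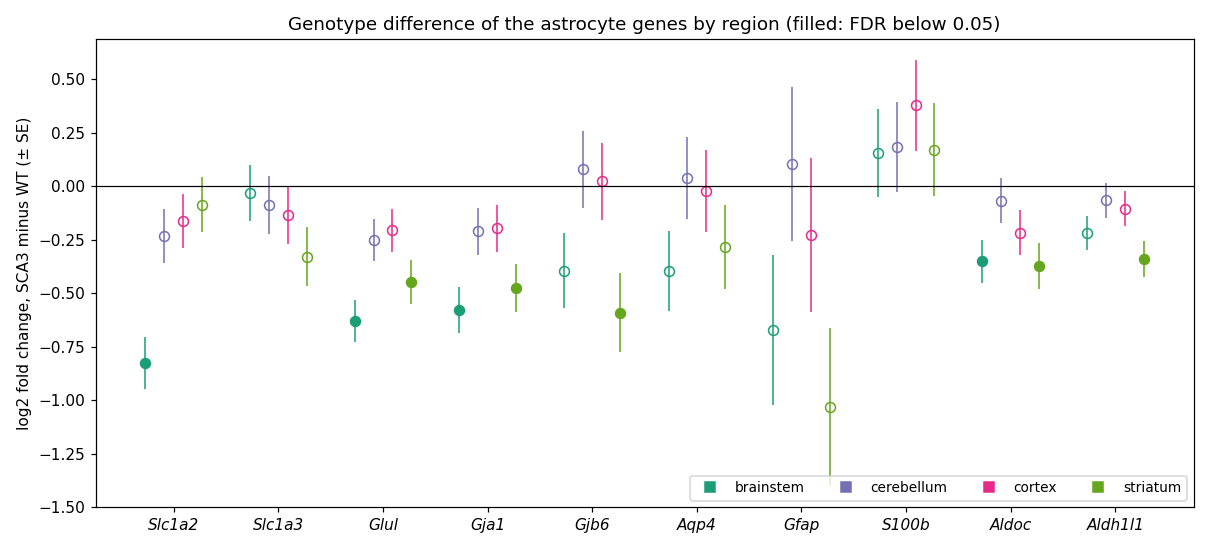
Log2 fold change of SCA3 minus wild-type for each astrocyte gene, 4 regions per gene, with bars of ± 1 SE and filled points where FDR was below 0.05. Slc1a2 in brainstem, at -0.83, lies furthest below 0 among the filled points, and the 4 S100b points all lie above 0, none of them filled.

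Among the 3 members of glutamate handling, Slc1a2 fell most in brainstem. Wild-type libraries ranged from 1582 over a median of 2508 to 3230.2 CPM, and SCA3 libraries from 1178 over 1383 to 1551 CPM. Each SCA3 library lay below each wild-type library, and the means fell by 43.6% (log2 fold change -0.83 ± 0.12 SE, FDR = 2.42e-08). In striatum the wild-type range of 2312 to 4071 CPM enclosed all 5 SCA3 libraries, at 2871, 2958, 3007, 3046 and 3289 CPM (log2 fold change -0.09 ± 0.13, FDR = 0.72). The values in cerebellum (-0.23 ± 0.13) and cortex (-0.16 ± 0.13) did not pass. A test of whether the genotype effect differed between the 4 regions passed for Slc1a2 alone among the members (FDR = 0.0359), as it did for 0.218% of all genes. This call was lost under 5 other models or sample choices and when any of 7 mice was left out.

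Glul, whose product turns glutamate into glutamine, fell in brainstem and striatum. In brainstem wild-type libraries ranged from 1589.8 over 1903 to 2210.5 CPM and SCA3 libraries from 1099 over 1159 to 1403 CPM, with no overlap. The means fell by 35.4% (-0.63 ± 0.10, FDR = 9.73e-08). In striatum wild-type ranged from 1270.1 over 1564 to 2109.8 CPM, and the SCA3 libraries were at 1147, 1150.1, 1174, 1256 and 1280 CPM, so that only the highest of them reached the lowest wild-type library (-0.45 ± 0.10, FDR = 0.00164). Values in cerebellum (-0.25 ± 0.10) and cortex (-0.21 ± 0.10) were also below 0 and did not pass.

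Slc1a3, the second glutamate transporter, was not called in any region. In brainstem its ranges nearly coincided, 208 to 359.9 CPM in wild-type and 219 to 332 CPM in SCA3 (-0.03 ± 0.13, FDR = 0.96, 95% interval -0.29 to 0.23). In striatum it was 520 to 912 CPM in wild-type against 485 to 548 CPM in SCA3 (-0.33 ± 0.14, FDR = 0.13), a value near those of Aldh1l1 and Aldoc, which passed there.

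Gja1, the main gap junction protein of astrocytes, fell in brainstem from 274 over 332 to 411 CPM in wild-type to 189 over 225 to 259 CPM in SCA3. The ranges did not overlap (-0.58 ± 0.11, FDR = 4.21e-05). In striatum wild-type libraries ranged from 167 over 246 to 294.5 CPM, and SCA3 libraries were at 150.5, 158.7, 158.8, 172 and 210.3 CPM, overlapping the lowest wild-type libraries (-0.47 ± 0.11, FDR = 0.00292). In cerebellum the difference was smaller but complete, 249.4 to 269 CPM against 209.9 to 239.8 CPM (-0.21 ± 0.11, FDR = 1.00). With only the cerebellar libraries in the fit, where the spread of Gja1 was narrow, FDR was 0.0216.

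Gjb6, which forms gap junctions with Gja1 in many astrocytes, passed in striatum only, where it is a low gene. Wild-type libraries ranged from 22.3 over 39.1 to 76.1 CPM and SCA3 libraries were at 20.9, 27.0, 27.6, 31.2 and 39.6 CPM, inside or just below the wild-type range (-0.59 ± 0.19, FDR = 0.0315). It passed in 12 of 28 alternatives, not in limma-voom with the mouse as a block (FDR = 0.077) or without it (FDR = 0.098), and was -0.09 in striatum alone with the thalamus score as a covariate. In brainstem it was -0.40 ± 0.18 (FDR = 0.28). Aqp4 did not pass in any region, with -0.40 ± 0.19 in brainstem (FDR = 0.33), -0.28 ± 0.20 in striatum (FDR = 0.39) and values near 0 in cerebellum and cortex.

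In brainstem and striatum Gfap varied most between mice of 1 group. In brainstem it ranged from 280.4 to 2178 CPM in wild-type and from 267 to 1203 CPM in SCA3 (-0.67 ± 0.35, FDR = 0.40). In brainstem alone its direction turned, to 0.09 with RIN and 0.49 with a score of mature oligodendrocyte markers as a covariate, and leaving out 1 mouse gave -0.92 to -0.44. In striatum 6 of the 8 wild-type libraries lay at 121 to 166 CPM and the other two at 318 and 736 CPM, while SCA3 libraries were at 85.9, 91.8, 105, 112 and 195 CPM (-1.03 ± 0.37, FDR = 0.070). The 2 high libraries were those of highest thalamus score, and without them the value was -0.31 (FDR = 0.73). Gfap was not higher in SCA3 than in wild-type beyond its spread in any region.

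S100b was the one member above 0 in all 4 regions, and none of these values passed. In cortex wild-type libraries ranged from 98.5 over 119 to 130.9 CPM and SCA3 libraries from 146.8 over 151.3 to 159 CPM, a complete separation (0.38 ± 0.21, FDR = 1). The dispersion in that test was shared with brainstem and striatum, where S100b spread from 216 to 674 and from 99.0 to 301 CPM. With the cortical libraries alone, FDR was 0.00339. In brainstem (0.15 ± 0.21, FDR = 0.81) and striatum (0.17 ± 0.22, FDR = 0.67) the genotypes overlapped. Without the 2 wild-type striatal libraries of high thalamus score the striatal value was 0.55 (FDR = 0.10), leaving out SCA3 mouse 9082853 gave 0.04, and leaving out wild-type mouse 7267059 gave 0.41.

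Of the metabolic members, Aldoc was lower in both affected regions. In brainstem it ranged from 1144 over 1574 to 1861 CPM in wild-type and from 1057 over 1229 to 1365 CPM in SCA3 (-0.35 ± 0.10, FDR = 0.0381), and in striatum from 614 over 702 to 1117 CPM against 552, 571, 581, 611 and 658 CPM (-0.37 ± 0.11, FDR = 0.0163). The ranges overlapped in both. Aldh1l1 fell in striatum with no overlap, from 53.9 over 56.0 to 76.8 CPM to 42.3, 46.1, 46.7, 50.5 and 52.4 CPM (-0.34 ± 0.08, FDR = 0.00389). In brainstem it was -0.22 ± 0.08 (FDR = 0.15). A combined test over the 4 regions passed for Slc1a2, Glul, Gja1, Aldoc and Aldh1l1, against 4.73% of all genes.

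How firm these calls were differed between the regions. In brainstem Slc1a2, Glul and Gja1 passed in all 28 alternative fits, including that without the 4 libraries of high thalamus score, where they were -0.93, -0.63 and -0.65. With the brainstem libraries alone and RIN as a covariate they were -0.57 (FDR = 0.00809), -0.61 (FDR = 2.98e-05) and -0.42 (FDR = 0.00604). Aldoc passed in 13 of 28, and was -0.37 (FDR = 0.084) without the 4 libraries and -0.24 (FDR = 0.59) with RIN. In striatum, leaving out the 2 wild-type libraries of high thalamus score left 1 call, Glul (-0.35, FDR = 0.0369). Gja1 (-0.36, FDR = 0.062), Aldh1l1 (-0.23, FDR = 0.092), Aldoc (-0.22, FDR = 0.25) and Gjb6 (-0.29, FDR = 0.44) did not pass. In striatum alone with the thalamus score as a covariate, Glul did not pass (-0.33, FDR = 0.18). Keeping libraries with RIN of at least 7 left none, with values of -0.40 for Glul, -0.38 for Gja1, -0.32 for Aldh1l1, -0.36 for Aldoc and -0.46 for Gjb6 from fewer libraries, each in the direction of the full fit. The calls over all genes in striatum fell as well, from 933 to 289 without the 2 libraries and to 139 with the RIN limit. With each region fitted alone, 5 members passed in brainstem (3.17% of all genes in either direction), 1 in cerebellum (0.170%), 1 in cortex (0.283%) and 1 in striatum (0.711%). These single members were Gja1, S100b and Glul, in that order.

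Other genes of the same functions were counted by region. Beside these counts and those of the lists below, 1.15% of all genes were called lower in brainstem and 5.47% in striatum. The median log2 fold changes over all genes were 0.0028 and -0.0031. Among 30 further astrocyte markers, 6 were lower in brainstem and none higher, with a median log2 fold change of -0.22. They included Ttyh1, a membrane protein (-0.44, FDR = 8.3e-10), Cbs, an enzyme of hydrogen sulfide and cysteine synthesis (-0.41, FDR = 1.4e-06), and Ppp1r3c, which targets a phosphatase to glycogen (-0.41, FDR = 3.2e-04). In striatum 12 were lower and none higher (median -0.25), Cbs (-0.40, FDR = 3.6e-05) and Ndrg2 (-0.44, FDR = 0.0020) among them. No marker passed in cerebellum (median -0.06) or cortex (median -0.07). The lists were chosen with earlier results of these data known. Ttyh1 and Cbs, like Glul, were among the most changed genes that the study listed from the same libraries. The counts are therefore a description.

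In the list of 13 measured genes of glutamate recycling, 2 were lower in brainstem, the cystine-glutamate exchanger Slc7a11 (-0.96 ± 0.18, FDR = 7.0e-05) and the metabotropic receptor Grm3 (-0.66 ± 0.12, FDR = 2.1e-05). In striatum 3 were lower, of which Slc17a6 (-2.48, FDR = 0.032) is a vesicular transporter of thalamic neurons and is also among the thalamus markers. In the list of 13 potassium, water and endfoot genes, 1 was lower in brainstem, the bicarbonate transporter Slc4a4 (-0.45, FDR = 0.0024), and 5 in striatum, with the potassium channels Kcnj10 (-0.51, FDR = 0.035) and Kcnj16 (-0.74, FDR = 0.0089) among them. None of the 8 other connexins and none of the 5 other measured S100 genes passed in any region. Among 20 genes of glycolysis, folate and serine metabolism, Psat1, an enzyme of serine synthesis, was higher in brainstem (0.48 ± 0.10, FDR = 8.3e-04), cortex (0.46 ± 0.11, FDR = 0.012) and striatum (0.40 ± 0.11, FDR = 0.0092).

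Genes linked to reactive astrocytes were not called higher in any region, in lists of 7 general, 10 A1 and 2 A2 genes that were measured. In striatum 2 general genes, S1pr3 (-0.38, FDR = 0.047) and Aspg (-0.96, FDR = 0.040), were lower. Of 14 astrocyte transcription factors only Pax6 passed, lower in striatum (-0.63, FDR = 0.022), where 5.47% of all genes were called lower. Of 5 other filament genes only Synm did, also lower in striatum (-0.45, FDR = 0.0499). Of 5 Bergmann glia genes, none passed in cerebellum, and Hopx (-0.92, FDR = 0.027) and Fabp7 (-0.73, FDR = 0.030) were lower in striatum.

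**Figure D3:**
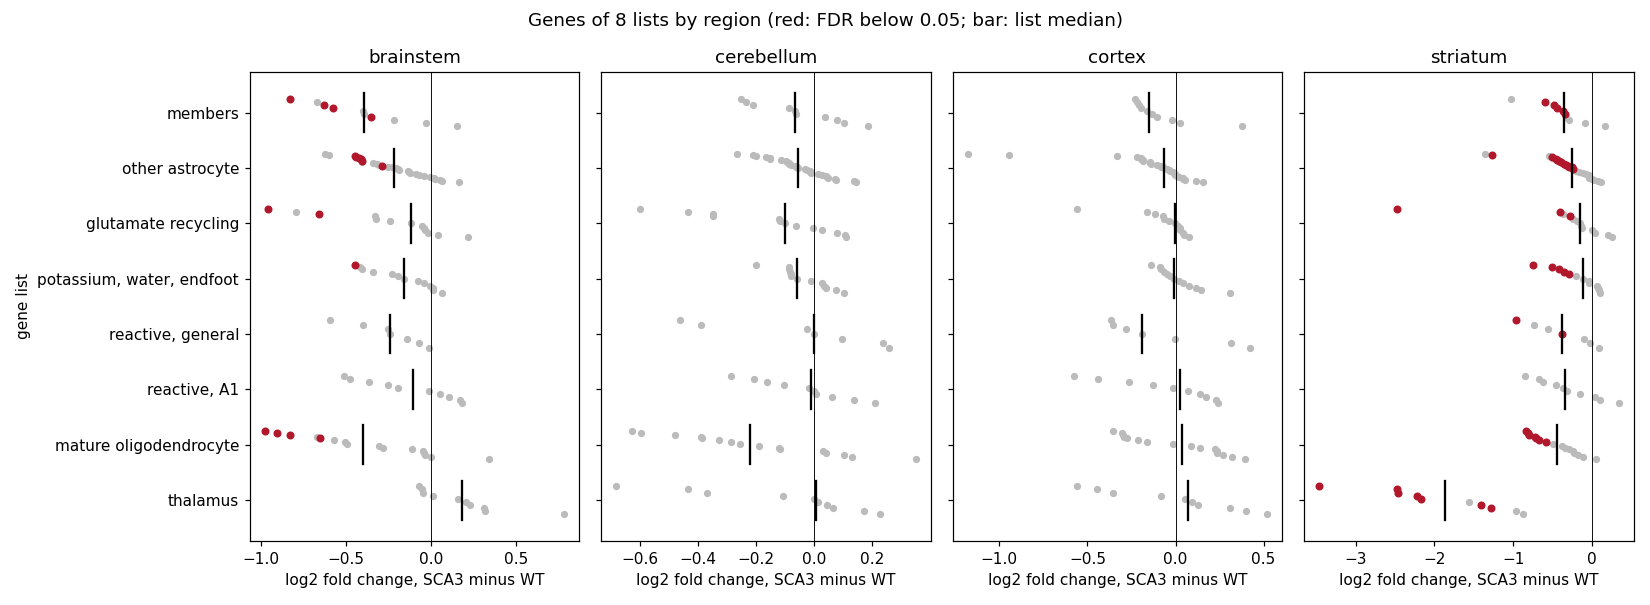
Log2 fold change of SCA3 minus wild-type of the genes in 8 lists, 1 panel per region with its own horizontal scale, with genes of FDR below 0.05 in red and the list median as a black bar. In striatum 7 of 10 thalamus markers are red, with a median of -1.86, beside the astrocyte genes, and in cerebellum and cortex no gene of these 8 lists is red.

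Markers of other cells moved in the same regions. Of 16 mature oligodendrocyte markers, 4 were lower in brainstem (Aspa, Ugt8a and Mal among them, median of the list -0.40) and 7 in striatum (median -0.44). Of all genes, 1.15% and 5.47% were called lower in these regions. Their score (mean log2 CPM) ranged from 7.75 to 8.61 in wild-type and from 7.70 to 8.28 in SCA3 brainstem, and from 7.23 to 8.66 and 7.18 to 7.81 in striatum. Of 12 microglia markers, P2ry12 was lower in brainstem (-0.37, FDR = 0.042), and no endothelial marker passed. Of 10 general neuron markers, Syp (-0.43, FDR = 0.0096) and Stmn2 (-0.60, FDR = 0.015) were lower in striatum. Of 10 thalamus markers none passed in brainstem, and 7 were lower in striatum. The 11 striatal projection neuron markers were all above 0 in striatum, with a median of 0.47, and none passed. The choroid plexus score of cerebellum was 2.43 to 7.19 in wild-type and 5.86 to 7.07 in SCA3 libraries. The part of these cells and of RIN in the astrocyte results was not tested beyond the alternatives given here. With the oligodendrocyte score as a covariate in brainstem alone, Slc1a2 (-0.55, FDR = 7.3e-05), Gja1 (-0.48, FDR = 1.3e-04) and Glul (-0.69, FDR = 3.3e-10) passed, Aldh1l1 did as well (-0.25, FDR = 0.012), Aldoc did not (-0.13, FDR = 0.40), and S100b was higher in SCA3 (0.86, FDR = 4.6e-14). This fit called 1268 of all genes. The score itself had a lower mean in SCA3 than in wild-type brainstem (7.95 against 8.32), so these adjusted values are not plain genotype differences. Without the score, S100b in brainstem alone was 0.15 (FDR = 0.84). In striatum alone, Glul was the 1 member of the 5 that passed without a covariate (-0.45, FDR = 0.040), and it did not pass with the oligodendrocyte score (-0.34, FDR = 0.099). Gja1 went from -0.47 to -0.39 with that score, and Aldh1l1 from -0.34 to -0.21. With it, Slc1a3 (-0.48, FDR = 0.0052) and S100b (0.66, FDR = 3.3e-05) passed.

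**Figure D4:**
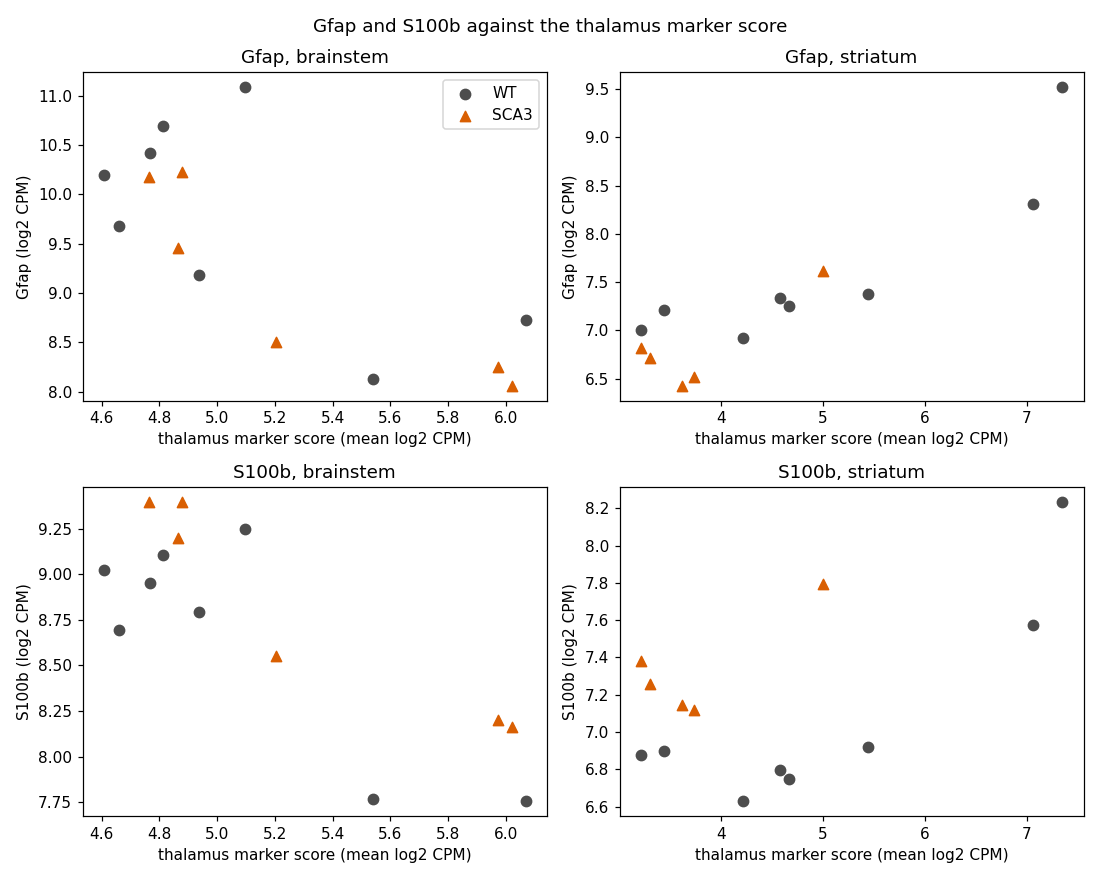
Gfap (top) and S100b (bottom) in log2 CPM against the thalamus marker score (mean log2 CPM of 10 genes) in brainstem (left) and striatum (right), with a point per library, wild-type as grey circles and SCA3 as orange triangles. In striatum the 2 wild-type libraries with scores of 7.06 and 7.35 have the highest Gfap, and in brainstem the 4 libraries with scores of 5.54 to 6.07 have low Gfap and S100b.

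The members did not vary as 1 unit between mice. After removing the mean of each region and genotype, Pearson's r over the 53 libraries had a median of 0.29 over the 45 pairs of members, and 13 pairs were above 0.5. Gfap and S100b were closest (r = 0.92), followed by Gfap and Aqp4 (r = 0.84) and Aqp4 and S100b (r = 0.79). The values differed between regions. For Gfap and S100b r was 0.95 in brainstem and 0.99 in striatum but 0.16 in cerebellum and 0.56 in cortex, and for Gfap and Aqp4 it was 0.96 in brainstem, 0.901 in striatum, 0.499 in cerebellum and 0.73 in cortex. All 7 pairs below 0 included Slc1a3, the lowest being Slc1a3 with S100b (r = -0.41). The libraries share depth, dissection and mice across regions, and the values are a description.

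**Figure D5:**
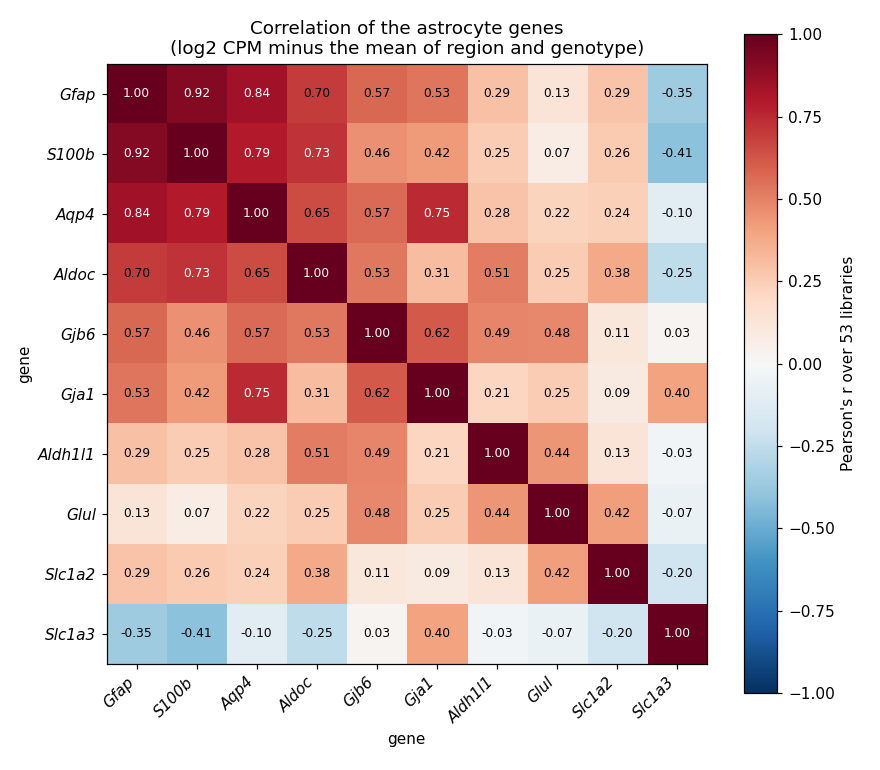
Pearson's r between the astrocyte genes over 53 libraries, on log2 CPM minus the mean of each region and genotype, with the value in each cell and a colour scale from -1 (blue) to 1 (red). Gfap, S100b, Aqp4 and Aldoc form a block of values from 0.65 to 0.92, and Slc1a3 has values below 0 with 7 of the other 9 genes.

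By the same measure, the gene of the whole table most like Gfap was Gm2a (r = 0.89), most like Aqp4 Jam2 (r = 0.88), most like S100b Trak2 (r = 0.89) and most like Aldoc Gm2a (r = 0.83). For Gja1 it was Wnt5a (r = 0.82), for Gjb6 Slc39a12 (r = 0.87), for Slc1a3 Ptprz1 (r = 0.81), for Slc1a2 Tbl1xr1 (r = 0.75), for Aldh1l1 Gpr37l1 (r = 0.72) and for Glul Acsl3 (r = 0.66). Among the 5 genes with the highest mean r over all 10 members were Slc39a12 (0.54), St6gal1 (0.53), Sdc4 (0.53) and Pla2g7 (0.53). Pla2g7 was lower in SCA3 striatum (-0.54, FDR = 0.0086).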

How the data were processed

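The raw read counts per gene deposited by the authors came from poly-A libraries that do not mark strand. Per the labels and the study's methods, reads were trimmed, aligned to GRCm38 with STAR 2.3.0e (unique alignments), counted per RefSeq gene with HTSeq 0.6.1 without strand, and genes averaging above 4 CPM were kept (versions from the submitters' processing notes). Library totals were 31.7 to 76.7 M counts (M for mega).

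The whole table was fitted with edgeR 4.0.16 in R 4.3.3 (TMM, 8 groups of region and genotype, all 53 libraries, likelihood ratio tests), the Benjamini-Hochberg adjustment covered 12372 genes, and FDR below 0.05 was called. Log2 CPM used a prior count of 2. Alternatives used limma 3.58.1 and DESeq2 1.42.0. The members and lists were chosen with earlier results of these data known. All members were named. Genes of other lists were named by smallest FDR among those called or, as examples of a count, called ones first. Genes most like a member were taken by highest r. Mouse numbers link libraries of the same animal across regions (mean correlation of deviations 0.09 to 0.19), while genotypes were compared between different mice. Gene positions and exon lengths came from GENCODE M21 and upstream windows from RefSeq, both GRCm38. A region's libraries each came from a separate mouse. Values of some genes that these rules would name are not reported here.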

Additional observations from a re-analysis of the deposited data

Results flagged for a closer look

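Of 80 groups of libraries (10 genes, 4 regions, 2 genotypes), 7 held a library far from the others of its group by Dixon's test at the 95% level, which flags about 1 in 20 groups by chance. In striatum, Gfap was 735.6 CPM in wild-type mouse 7267059, the next library being at 317.9 CPM, and S100b was 301.1 CPM in the same library against 190.8 CPM. This library also had the highest thalamus score. SCA3 mouse 9082853 had striatal Gfap of 195.3 CPM, against at most 112.3 CPM in the other SCA3 mice, and Aqp4 of 182.7 CPM against 104.3 CPM, and its thalamus score of 5.01 was the highest of the SCA3 striatal libraries. Gfap was low in the cerebellum of wild-type mouse 9083375, at 144.8 CPM beside 193.8 CPM in the next. Gjb6 was 77.65 CPM in the brainstem of SCA3 mouse 7267054, the next being 67.1 CPM. Aldoc was 2079 CPM in the cerebellum of wild-type mouse 9083371, the next being 1691 CPM. The genotype effect on Slc1a2 differed between the 4 regions in the interaction test (FDR = 0.0359), with -0.83 in brainstem against -0.09 in striatum. The causes were not tested.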

How the results depend on the processing

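The brainstem count of members called was 3 to 5 over 28 alternatives. Slc1a2, Glul and Gja1 passed in each of them. The striatal count of 5 went to 0 with RIN of at least 7, to 1 with striatal libraries alone, alone with the thalamus score, alone with RIN (added after seeing the data) and without the 2 wild-type libraries of high thalamus score (also added), and to 2 with the oligodendrocyte score. With striatal libraries alone the values were close to those reported (Gja1 -0.474, Gjb6 -0.59, Aldoc -0.371, Aldh1l1 -0.341), so these calls were lost at about the same size. With the thalamus score as a covariate they were smaller, at -0.237, -0.0927, -0.196 and -0.2 in the same order. The call with the thalamus score was S100b, higher in SCA3 (0.601, FDR = 0.0406), and those with the oligodendrocyte score were S100b, higher, and Slc1a3, lower (-0.479, FDR = 0.00515). It was 3 to 7 when a mouse was left out, and 3 without 7267056, 7267059 or 9083515. The counts of 0 in cerebellum and cortex became 1 in the 4 fits of each region alone. The region dependence of Slc1a2 went from 1 to 0 under the quasi-likelihood test, limma-voom without and with the mouse as a block, RIN as a covariate and RIN of at least 7, and was 0 to 1 when a mouse was left out (0 without 7267054, 7267056, 7267058, 7267059, 9083372, 9083514 or 9083515). With the mouse as a replicate block (estimated correlation 0.14), the brainstem count was 3 and the striatal count 4, and the same counts were found in limma-voom without the block. All 10 members differed between wild-type regions, also with the mouse as a fixed block. Of 1100 recomputed fold changes, 24 changed sign, none of them of a gene in a region where it was called, 55 lost and 20 gained a call. With the oligodendrocyte score Gfap in brainstem was 0.489, Aqp4 in brainstem 0.0162 and Aqp4 in striatum 0.126. With RIN in the region alone Gfap in brainstem was 0.0896 and Aqp4 in cortex 0.12, and with RIN in the joint fit Aqp4 in cortex was 0.0112 and Slc1a3 in brainstem 0.0289. With the thalamus score Aqp4 was 0.000359 in cortex and 0.183 in striatum, and it was 0.0985 in striatum without the 2 libraries. Leaving out a mouse gave -0.104 to 0.0389 for Aqp4 in cortex, -0.038 to 0.114 for Gjb6 in cortex and -0.106 to 0.0289 for Slc1a3 in brainstem. The cause of these changes was not tested. The count of all genes called ranged from 99 to 1268 in brainstem (238 as reported) and from 69 to 1833 in striatum (933), from 5 to 91 in cerebellum (8), from 9 to 78 in cortex (19), from 1 to 263 for region dependence (27) and from 260 to 1049 in the combined test (585).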

Other observations

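Because S100b stood above 0 while Gfap stood below 0 in brainstem, cortex and striatum, the log2 level of S100b minus that of Gfap is given for each library. This pair was chosen after the values were seen, so the values are a description and carry no test. In striatum the difference ranged from -1.29 to -0.12 in 8 wild-type and from 0.18 to 0.72 in 5 SCA3 mice, with no overlap and a shift of the mean of 1.05. In cortex it ranged from -1.15 to -0.23 in wild-type and from -0.22 to 0.06 in SCA3 mice, with a shift of 0.56 and ranges that nearly touch. In brainstem the ranges of -1.84 to -0.36 and -0.84 to 0.10 overlapped, with a shift of 0.80. In cerebellum the shift was 0.07, and the wild-type range of 0.53 to 1.32 enclosed that of SCA3.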
